A study of Mus musculus with 4 samples.

Results

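Prostaglandin E2 is made from arachidonic acid in a short chain of steps, and 10 genes of that chain were examined: the cyclooxygenases Ptgs1 and Ptgs2, the terminal prostaglandin E synthases Ptges, Ptges2 and Ptges3, the inactivating enzyme Hpgd and the receptors Ptger1, Ptger2, Ptger3 and Ptger4. They were chosen by name for their place in the pathway, with earlier results of these data known. A gene was measured where the annotation of the array gave a row its symbol and no other, and the row with the highest mean stood for a gene with several such rows. This held for 8 of the 10 genes, out of 22180 genes in all. Ptgs1 and Ptger1 had 0 rows under their symbols, alone or shared, and were not analysed here.

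The RNA came from primary keratinocytes of C57BL/6J mice aged 1 week. Both genotypes carried floxed alleles of Glut1, the glucose transporter gene Slc2a1: the wild-type group was Glut1_fl/fl and the Glut1-deficient group Glut1_fl/fl K14 Cre, with 4 mice of each. Cre under the keratin 14 promoter acts in basal keratinocytes, so other cells carried into a culture keep the gene. Cells grew for 3 days in keratinocyte serum-free medium with 0.05 mM CaCl2, 5 ng/ml EGF, 0.05 ug/ml hydrocortisone, 0.5 ug/ml insulin and bovine pituitary extract, were replated at equal number and were taken 1 day later. For extraction, 1500000 cells of each wild-type sample and 1000000 of each Glut1-deficient sample were lysed, a difference that cannot be told apart from genotype. Each array held the RNA of 2 plates of a genotype, which gave 2 wild-type and 2 Glut1-deficient arrays. Values are log2 intensities, in which a difference of 1 is a doubling of signal, and differences are between arrays for a gene. Levels of different genes were set side by side only to tell dim rows from bright ones.

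Phospholipases free arachidonic acid from membranes, and cyclooxygenases turn it into prostaglandin H2, which terminal synthases convert to prostaglandin E2, thromboxane or other prostanoids. Prostaglandin E2 leaves the cell and acts through G protein-coupled receptors named EP1 to EP4: EP2 and EP4 raise cAMP, EP3 mostly lowers it and EP1 raises calcium. In epidermis the pathway is known for its part in inflammation, in wound healing and in keratinocyte growth, and EGF is a known inducer and glucocorticoid a known repressor of Ptgs2.

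Ptgs2, the inducible cyclooxygenase COX-2, was the 1 gene of the 8 that passed the test over all genes, and it rose. Its log2 intensity was 10.78 and 11.00 on the wild-type arrays and 12.05 and 12.08 on the Glut1-deficient arrays. Both Glut1-deficient arrays lay above both wild-type arrays, with a gap of 1.04 between the nearest values. The group levels were 10.89 ± 0.16 and 12.06 ± 0.027 (SD, n = 2 each), and the difference was 1.18 on the log2 scale (SE 0.11), a 2.26-fold rise with a 95% interval of 1.86 to 2.75 (limma, Benjamini-Hochberg adjusted p = 0.0211 over all genes). By the same test 2.84% of all genes passed, with 1.79% risen and 1.05% fallen. Beside it, fibroblast markers had a median log2 difference of 0.99 and melanocyte markers one of 0.60. The call did not hold with 1 array left out: the log2 difference was 1.06 without wild-type array 1, 1.29 without wild-type array 2, 1.20 without Glut1-deficient array 1 and 1.16 without Glut1-deficient array 2, with limma adjusted p of 0.226, 0.158, 0.170 and 0.0994. Every other rise or fall named in the text was lost in the same way, since 0 genes passed with any 1 array left out (limma, 2948 to 4627 genes at unadjusted p under 0.05). The call for Ptgs2 was also lost with all rows of the array tested (limma adjusted p = 0.101) and with the replicate number as a block (limma adjusted p = 0.0563).

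The promoter of Ptgs2 is shown because this gene carried the change and because several of the factors known to bind there were measured on the same arrays. The sequence is that of RefSeq on GRCm38.p6, plus strand, read 5′ to 3′, and 9 of the 10 genes had a promoter entry there. The first stretch is the 250 bases before the annotated start, chr1:150099781-150100030, with a C/EBP motif and a GC box in capitals. The second is a site of 30 bases just after that start, chr1:150100034-150100063, with the core of a cAMP response element and an E-box, which share bases, in capitals.
Ptgs2 before the start: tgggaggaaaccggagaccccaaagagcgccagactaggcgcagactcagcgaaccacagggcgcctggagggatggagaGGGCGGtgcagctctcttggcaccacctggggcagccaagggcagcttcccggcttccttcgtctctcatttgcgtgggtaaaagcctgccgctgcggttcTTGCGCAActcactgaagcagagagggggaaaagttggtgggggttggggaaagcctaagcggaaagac
Ptgs2 after the start: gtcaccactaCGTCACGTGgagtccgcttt

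The C/EBP motif was searched as TTGCNNAA, the cAMP response element core as TGACG, the E-box as CACGTG and the GC box as GGGCGG, each on both strands and over the 250 bases before and 50 bases after a start. Counted from the annotated start, the C/EBP match in Ptgs2 began at position -69 and read TTGCGCAA, the cAMP element core began at position 14 and the E-box at position 17. Of 32851 promoter windows of that length, 10.8% held the C/EBP motif, 20.8% the cAMP element core, 7.15% the E-box and 35.7% the GC box. Among the other members, Ptger2 held the C/EBP motif, Ptges3 the cAMP element core and Ptges2 the E-box, while 6 of 9 windows, that of Ptgs2 included, held a GC box. The letters TGATGNAA of the composite element that CHOP and ATF4 bind were in 0 of the 9 windows and in 3.97% of all windows, and the AP-1 letters TGANTCA in 0 of 9 and 7.81%. The TATA box letters TATAAA were in Hpgd alone of the 9, with 13.6% of all windows, and the NF-kappaB motif in Ptges3 alone, with 8.46%. In Hpgd the TATAAA letters began at position 5, after the annotated start and not before it. These are matches of letters and were not tested as binding sites. Whether transcription begins at the annotated start in these cells was not tested, so a position after it need not be transcribed. Bases beyond the windows were not searched, so a motif absent from a window may lie further out.

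**Figure D1:**
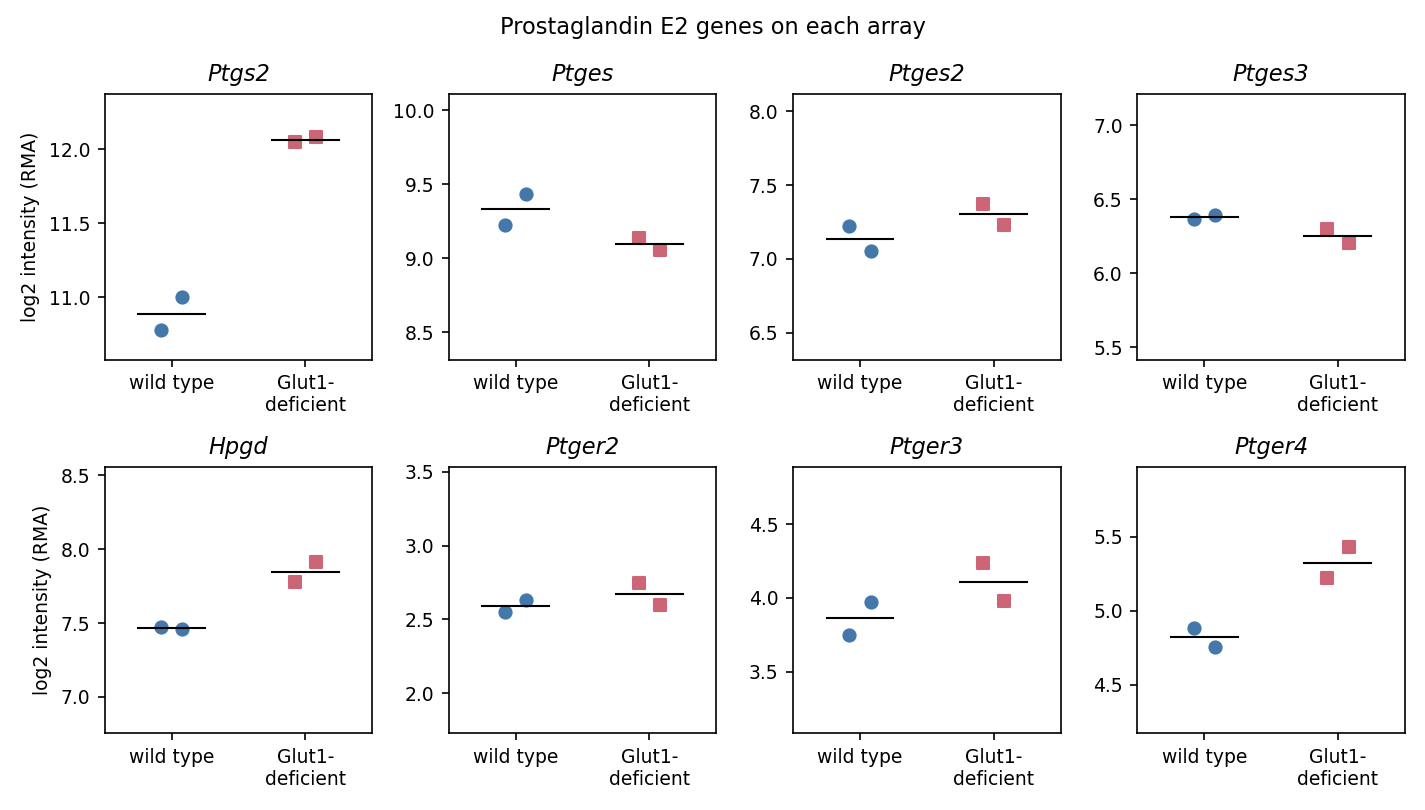
Log2 intensity (RMA, y axis) of the 8 measured genes on each array, with wild-type arrays as circles, Glut1-deficient arrays as squares and the mean of the 2 arrays of a genotype as a line; every panel spans the same number of log2 units but is centred on its own gene. Ptgs2 has the widest gap between genotypes, 1.04, and the values of Ptger2 overlap.

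Of the 3 terminal synthases measured, 0 passed in limma, and 0 had an unadjusted p under 0.05. Ptges, the inducible microsomal synthase that is known to work with COX-2, read 9.22 and 9.44 on the wild-type arrays and 9.13 and 9.06 on the Glut1-deficient arrays. The Glut1-deficient values were the lower, with a gap of 0.089, and the log2 difference was -0.23, its 95% interval running from -0.52 to 0.048 (limma adjusted p = 0.296). A rise of Ptges as large as that of Ptgs2 lies outside this interval. The log2 difference for Ptges2, the second membrane-bound synthase, was 0.17 (interval -0.11 to 0.44), from 7.22 and 7.05 on wild-type to 7.37 and 7.23 on Glut1-deficient arrays (limma adjusted p = 0.440), and the nearest values of the genotypes were 0.011 apart.

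Ptges3, the cytosolic synthase that is also the HSP90 co-chaperone p23, had 1 row of its own and 2 rows shared with its pseudogene Ptges3-ps, so signal from the pseudogene cannot be told apart in the shared rows. Its own row read 6.37 and 6.39 on wild-type and 6.30 and 6.21 on Glut1-deficient arrays, a log2 difference of -0.12 (95% interval from -0.35 to 0.10; limma adjusted p = 0.476). Of the shared rows, the brighter read 11.32, 11.25, 11.15 and 11.07 in the same order of arrays (log2 difference -0.17) and the other 8.30, 8.24, 8.31 and 8.21 (log2 difference -0.0092). All 3 rows were slightly lower on average on the Glut1-deficient arrays and 0 of them passed in limma over all rows (adjusted p from 0.480 to 0.980).

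Hpgd encodes 15-hydroxyprostaglandin dehydrogenase, the enzyme that starts the inactivation of prostaglandin E2. It read 7.47 and 7.46 on the wild-type arrays and 7.78 and 7.91 on the Glut1-deficient arrays, so that both Glut1-deficient values were the higher, by a gap of 0.31. The log2 difference was 0.38 (SE 0.093), or 1.30-fold, and its 95% interval ran from 0.14 to 0.62. It did not pass over all genes (limma adjusted p = 0.106, unadjusted p = 0.00968). It passed where the variance was allowed to follow intensity (limma adjusted p = 0.0246) and among genes above the median level (limma adjusted p = 0.0318). Many more genes passed in those settings, 2671 of 22180 and 2327 of 11090, against 630 of 22180 in the main fit.

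Of the receptors, Ptger4, which encodes EP4, had the widest difference. It read 4.88 and 4.76 on the wild-type arrays and 5.22 and 5.43 on the Glut1-deficient arrays, again with both Glut1-deficient values the higher and a gap of 0.34. The log2 difference was 0.50 (SE 0.11), or 1.42-fold, its 95% interval ran from 0.21 to 0.80, and it did not pass (limma adjusted p = 0.0929, unadjusted p = 0.00684). It passed among genes above the median level (limma adjusted p = 0.0308), where 2327 of 11090 genes did. With an intensity trend in the variance Ptger4 did not pass (limma adjusted p = 0.0581).

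Ptger3, which encodes EP3, read 3.75 and 3.97 on wild-type and 4.24 and 3.98 on Glut1-deficient arrays, where the nearest values were 0.011 apart (log2 difference 0.25, 95% interval -0.10 to 0.60; limma adjusted p = 0.359). Ptger2, which encodes EP2, read 2.55 and 2.63 on wild-type and 2.75 and 2.59 on Glut1-deficient arrays, and the genotypes overlapped (log2 difference 0.078, 95% interval -0.18 to 0.33; limma adjusted p = 0.706). The deposited values carry no detection calls, so the rows of olfactory receptor genes, which keratinocytes are not known to use, serve as a picture of dim rows: 1105 of them had a median of 2.49, and 95% of them lay below 3.84. The mean of Ptger2 exceeded 60.0% of these rows and that of Ptger3 95.8%. The Ptger4 mean exceeded 98.9% and that of Ptges3 99.8%, and those of Ptgs2, Ptges, Ptges2 and Hpgd exceeded all 1105. Ptger2 thus lay among the dim rows and Ptger3 at their upper edge.

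**Figure D2:**
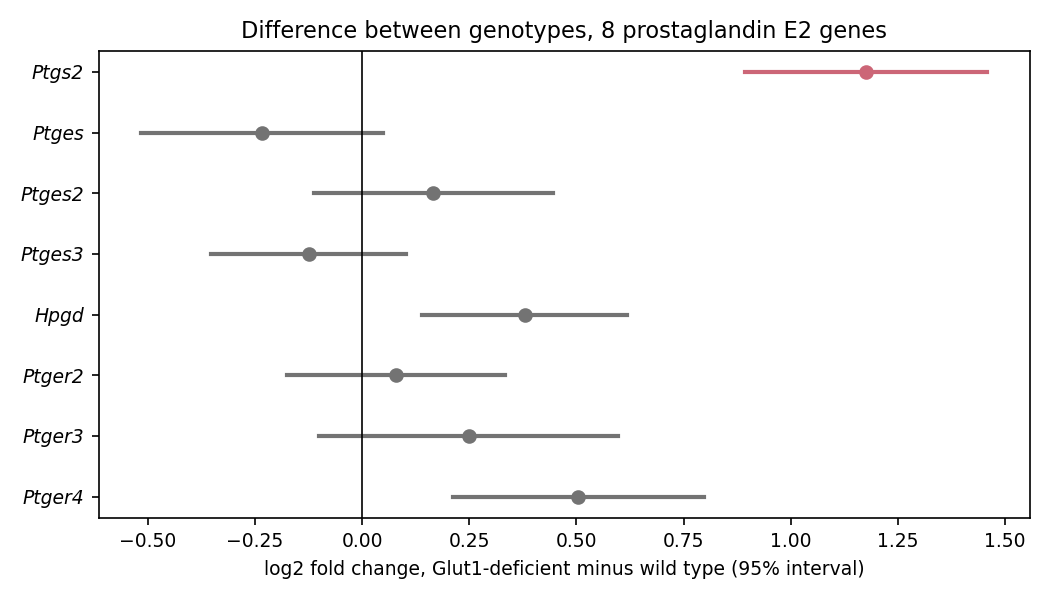
Log2 fold change, Glut1-deficient minus wild type (x axis), for the 8 measured genes with limma's 95% interval for each gene, unadjusted for the number of genes; the gene that passed over all genes is in red. The intervals of Ptgs2, Ptger4 and Hpgd lie above 0 and the other 5 cross it.

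Taking the 8 genes as a list, 1 rose, 0 fell and 7 did not pass (limma), and 3 had an unadjusted p under 0.05, namely Ptgs2, Ptger4 and Hpgd, where 22.2% of all genes did. The arrays of the genotypes did not overlap for 7 of the 8, with 5 higher and 2 lower on the Glut1-deficient arrays. Such separation was common, at 53.2% of all genes, 25.5% higher and 27.7% lower. The median log2 difference was 0.21 over the 8 and -0.0074 over all genes.

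Ahead of cyclooxygenase in the chain, 2 phospholipases rose. Pla2g4a, the cytosolic phospholipase A2 that is known to supply arachidonic acid for prostanoids, read 9.08 and 9.12 on wild-type and 9.81 and 9.84 on Glut1-deficient arrays, a 1.66-fold rise (log2 difference 0.73, SE 0.084; limma adjusted p = 0.0302). Pla2g12a, a secreted phospholipase A2, rose 1.85-fold, from 6.07 and 6.09 to 7.05 and 6.89 (limma adjusted p = 0.0280). The other 18 of the 20 tested genes of arachidonate supply did not pass, among them Acsl4, which joins arachidonate to coenzyme A, at a log2 difference of -0.24, and Pla2g4f, a further cytosolic phospholipase, at 0.23. The mean of Pla2g4f over the arrays was 3.66, below the 3.84 under which 95% of the olfactory receptor rows lay. The median of this list was -0.012, beside -0.0074 over all genes.

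Beside the prostaglandin E2 branch, Hpgds, the haematopoietic prostaglandin D synthase, rose 2.44-fold, from 5.45 and 5.59 on wild-type to 6.82 and 6.80 on Glut1-deficient arrays (log2 difference 1.29, SE 0.094; limma adjusted p = 0.0155). The other 9 tested synthases and receptors of prostaglandins D2, F2 alpha and I2 and of thromboxane did not pass, and the list median was 0.089. Those with the smallest p after Hpgds were Ptgdr, a prostaglandin D2 receptor, with a log2 difference of 0.31, Prxl2b, a prostamide and prostaglandin F synthase, at 0.40, and Ptgds, the lipocalin-type prostaglandin D synthase, at 0.11. The mean of Ptgdr over the arrays was 3.70, below the 3.84 under which 95% of the olfactory receptor rows lay. Of 12 genes of prostaglandin transport and breakdown, 0 passed in limma, with a median of 0.18. An unadjusted p under 0.05 (limma) was found for 4 of the 12, beside 22.2% of all genes. Slco2a1, the transporter that takes prostaglandins up for breakdown, read 11.53 and 11.55 on wild-type and 10.90 and 11.10 on Glut1-deficient arrays (log2 difference -0.54; limma adjusted p = 0.0705). Zadh2, a prostaglandin reductase, was at 0.67 (limma adjusted p = 0.0729), Abcc4, an exporter of prostaglandins, at 0.46 and Ptgr1, a reductase of prostaglandin and leukotriene products, at 0.32, and none of the 3 passed.

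In the list of the lipoxygenase branch, Aloxe3, an epidermal lipoxygenase of the skin barrier, rose 2.88-fold and the other 13 of 14 tested genes did not pass. Its partner enzyme gene Alox12b read 3.97 and 4.26 on wild-type and 4.67 and 4.78 on Glut1-deficient arrays (log2 difference 0.61; limma adjusted p = 0.0823). Ephx2, the soluble epoxide hydrolase, which the list held though it is not a lipoxygenase, was at -0.55. Ltb4r1, a leukotriene B4 receptor, was at -0.50, and the list median was -0.12.

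**Figure D3:**
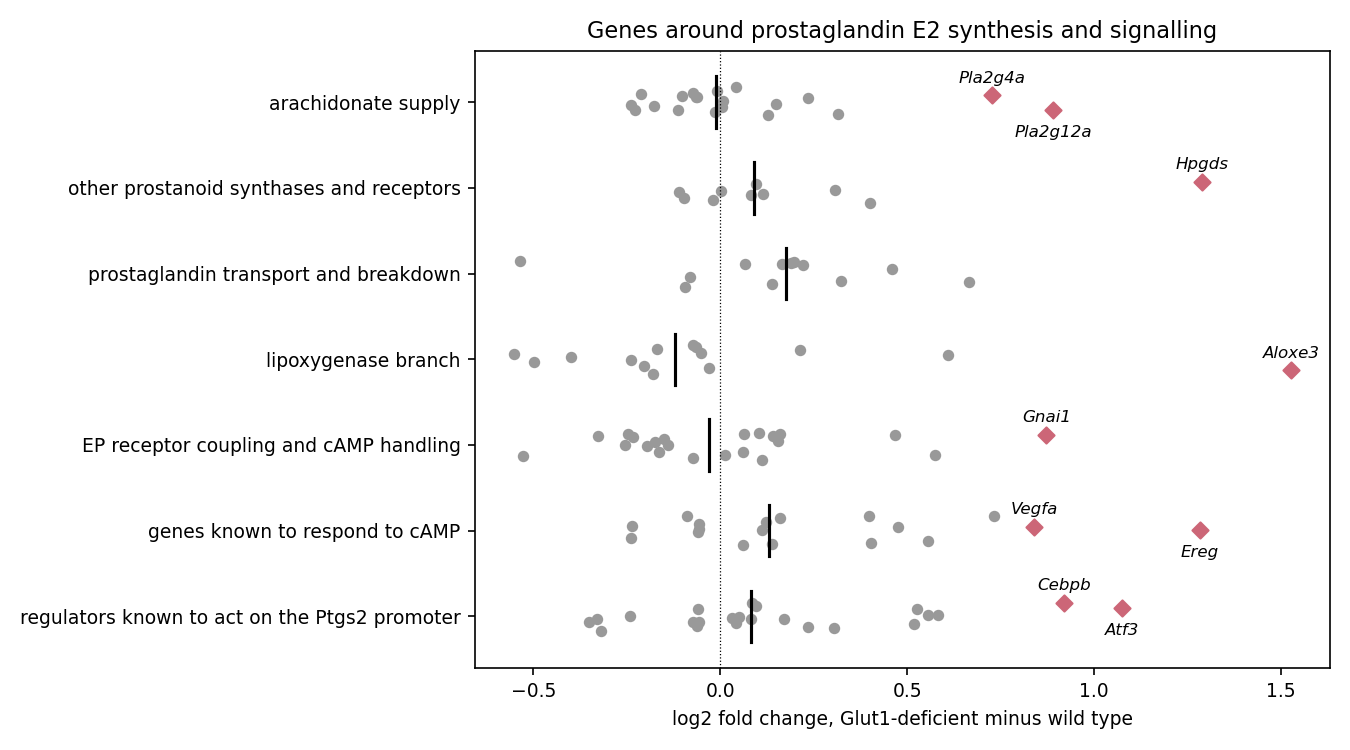
Log2 fold change, Glut1-deficient minus wild type (x axis), of each tested gene in 7 lists around prostaglandin E2 (rows), with genes that passed in limma over all genes as red diamonds with their names, other genes in grey and the list median as a black bar; vertical scatter within a row has no meaning. All named genes lie to the right of 0, and the list medians lie between -0.12 and 0.18.

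Downstream of the receptors, 1 of 22 genes of G protein coupling and cAMP handling passed. Gnai1, an inhibitory G protein subunit of the kind EP3 couples to, rose 1.83-fold, from 7.01 and 6.93 to 7.82 and 7.86 (log2 difference 0.87, SE 0.087; limma adjusted p = 0.0227). Gnai2 and Gnai3, brighter genes of the same kind with means of 10.63 and 9.91, were at -0.26 and -0.14 and did not pass. In this list 6 genes were higher and 11 lower without overlap, beside 25.5% and 27.7% of all genes. The adenylyl cyclase genes Adcy9, at 0.47, and Adcy7, at -0.53, lay on opposite sides of 0, Prkar2a, a regulatory subunit of protein kinase A, was at -0.33, and the list median was -0.030. Among genes known to respond to cAMP, 2 of 18 rose and 0 fell, with a median of 0.13. Without overlap, 8 of them were higher and 2 lower, beside 25.5% and 27.7% of all genes. The 2 lower were Sik1 and Sst, each at -0.24. Ereg, the EGF receptor ligand epiregulin, rose 2.43-fold, from 7.12 and 7.21 to 8.59 and 8.31 (limma adjusted p = 0.0223), and Vegfa, an angiogenic growth factor, rose 1.79-fold (limma adjusted p = 0.0456). Nr4a2, an orphan nuclear receptor, was at 0.73 (limma adjusted p = 0.0581) and Hbegf, a further EGF receptor ligand, at 0.40 (limma adjusted p = 0.0801), and neither passed.

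Of 23 tested regulators known to act, directly or from upstream, on the Ptgs2 promoter or its message, 2 rose, 0 fell and 21 did not pass. The list median was 0.083, and 10 had an unadjusted p under 0.05 (limma), beside 22.2% of all genes. Without overlap, 11 were higher and 5 lower on the Glut1-deficient arrays, beside 25.5% and 27.7% of all genes. Among the lower were Rel at -0.35, Nfkbia at -0.33 and Junb at -0.32. Atf3, a stress-induced factor of the ATF/CREB family, read 7.23 and 7.42 on wild-type and 8.50 and 8.30 on Glut1-deficient arrays, a 2.11-fold rise (limma adjusted p = 0.0284). Cebpb, which encodes C/EBP beta, rose 1.89-fold, from 6.86 and 7.06 to 7.98 and 7.78 (limma adjusted p = 0.0389). Jun, a subunit of AP-1, was at 0.58 (limma adjusted p = 0.0808), and Zfp36, which encodes a protein that speeds the decay of AU-rich messages, was at 0.52 (limma adjusted p = 0.0540). Over the 7 lists, each gene taken once, 9 of 114 tested genes rose and 0 fell, which is 7.89% against the 2.84% of all genes. The lists were chosen by role with earlier results of these data known, so that share is a description.

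The genes whose values ran closest to those of Ptgs2, by the root mean square distance of mean-centred log2 values over the 4 arrays among 17656 genes, were Got1 (0.044), Gpr149 (0.057), Vldlr (0.066), Scpep1 (0.068) and Hpgds (0.068). Got1 encodes the cytosolic aspartate aminotransferase, Vldlr a lipoprotein receptor, Gpr149 an orphan receptor and Scpep1 a serine carboxypeptidase. With 4 arrays this mostly orders genes by the size of the genotype difference, which was 1.21 for Got1 and 1.29 for Hpgds.

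Markers of other cells differed along with the genotypes. All 13 tested fibroblast markers had positive differences, beside 48.4% of all genes, with a median of 0.99, although Sparc alone passed (limma). Their mean log2 value was 5.56 and 5.44 on wild-type arrays 1 and 2 and 6.94 and 6.31 on Glut1-deficient arrays 1 and 2. Lum alone had a mean within the range of the dim rows in both genotypes. The brightest of them, Vim and Pdgfra, had log2 differences of 1.70 and 2.15 (limma adjusted p = 0.0722 and 0.0608), and Sparc rose 2.37-fold. Fibroblasts are known to express Ptgs2 and Hpgd. Of 10 melanocyte markers 9 were positive and 5 rose, beside 48.4% and 1.79% of all genes. Their means were 5.16 and 4.98 on wild-type and 5.81 and 5.86 on Glut1-deficient arrays, and Tyr lay among the dim rows. Dct, Pmel and Tyrp1, which serve pigment synthesis, rose 3.42-fold, 3.24-fold and 2.49-fold. Between the Glut1-deficient arrays, array 1 minus array 2, the fibroblast mean differed by 0.62, while Ptgs2 differed by -0.038, Ptger4 by -0.21 and Hpgd by -0.13. The other 5 genes were higher on array 1, Ptger3 by 0.25, Ptger2 by 0.15, Ptges2 by 0.14, Ptges3 by 0.092 and Ptges by 0.077. Wild-type array 1, which had the higher fibroblast mean of its pair, had the higher value of Ptger4 (by 0.12), Hpgd (by 0.011) and Ptges2 (by 0.17) and the lower value of the other 5, Ptgs2 included (-0.22). The order of the arrays within a genotype thus differed from gene to gene. The part of these cells in the results was not tested, and in RNA of whole cultures more cells of a type and more RNA per cell cannot be told apart.

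Immune cells are a known source of Hpgds and of prostaglandin E2. The 12 tested markers of macrophages and Langerhans cells had a median difference of -0.014 and means of 3.98 to 3.99 on wild-type and 3.92 to 3.95 on Glut1-deficient arrays, and 6 of them, Adgre1, Aif1, Fcgr3, H2-Aa, Itgam and Ptprc, lay among the dim rows. The brightest of that list, Cd68, C1qa and Csf1r, were at 0.036, 0.041 and -0.29. Of 10 mast cell and T cell markers 8 lay there. The brightest, Thy1, which is also a fibroblast marker, Cd3e and Tpsb2, were at 0.92, -0.023 and 0.43. In either of these lists 0 passed (limma), with 2 and 3 at unadjusted p under 0.05, beside 22.2% of all genes. In the endothelial list Kdr rose 5.20-fold, Eng was at 1.16 (limma adjusted p = 0.0602) and Pecam1 at -0.35 (limma adjusted p = 0.220), while Vwf, Tek and Emcn lay among the dim rows and the median was 0.040. In the keratinocyte list 9 of 11 tested markers lay above the dim rows, and Krt1 and Krt15 lay among them. In limma 0 of the 11 passed, while 7 had an unadjusted p under 0.05, beside 22.2% of all genes, and the median was -0.041. Krt14, a keratin of basal keratinocytes, read 12.56 and 12.54 on wild-type and 12.15 and 12.21 on Glut1-deficient arrays. Perp, a desmosomal membrane gene, was at 0.30, Dsp, the desmosome linker, at 0.014 and Dsg3, a desmosomal cadherin, at 0.47, and none of these 4 passed. Lower, besides Krt14, were Col17a1 at -0.73 (limma adjusted p = 0.0576), Itgb4 at -0.57 (limma adjusted p = 0.053), Itga6 at -0.31 and Trp63 at -0.29. Without overlap, 5 of the 11 keratinocyte markers were lower and 2 higher on the Glut1-deficient arrays, beside 27.7% and 25.5% of all genes. In the smooth muscle and pericyte list, 1 of 7 genes, Acta2, fell by 0.71 on the log2 scale, and Tagln and Cnn1 were at -0.098 and -0.59.

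**Figure D4:**
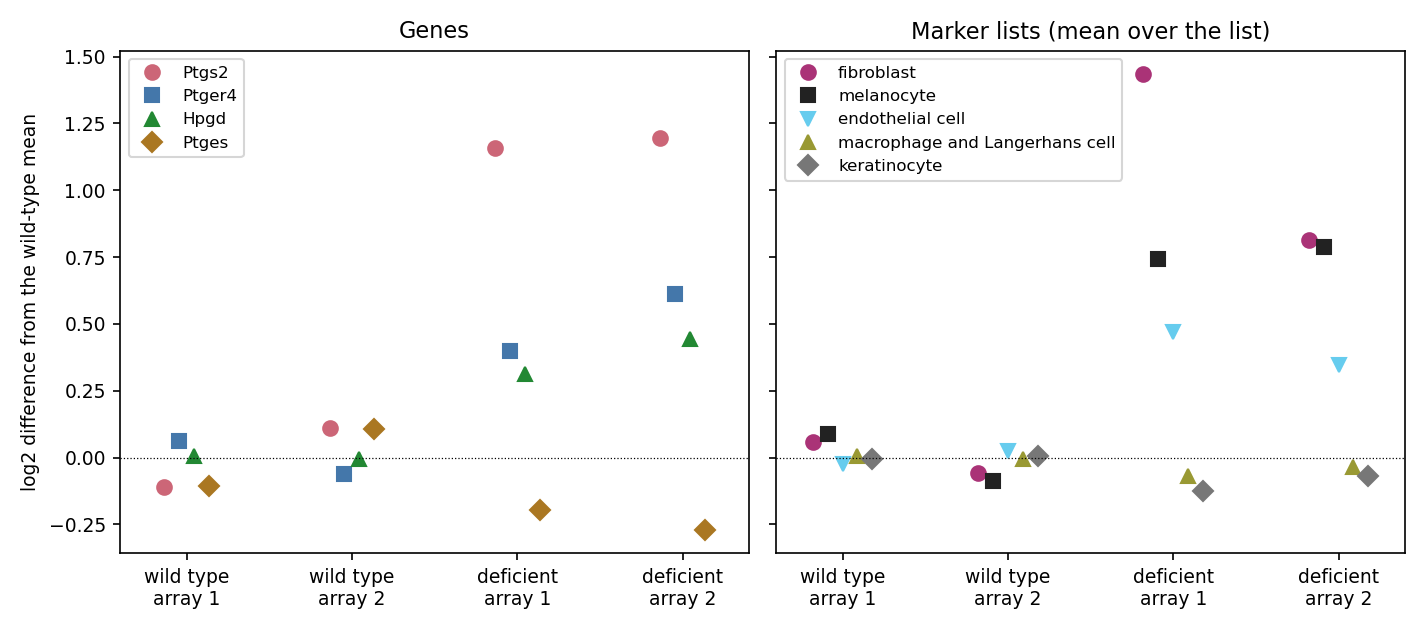
Difference from the wild-type mean on the log2 scale (y axis) on each of the 4 arrays (x axis), for 4 prostaglandin E2 genes (left) and for the mean over 5 marker lists (right); points are shifted sideways within an array for legibility. On Glut1-deficient arrays 1 and 2 Ptgs2 reads 12.05 and 12.08 and the fibroblast mean is 6.94 and 6.31. The part of fibroblasts in the values of the genes was not tested.

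The array medians over all rows lay between 4.07 and 4.11, and correlations over genes were 0.996 and 0.995 within genotypes and 0.987 to 0.991 between them. The brighter row of Slc2a1, the floxed gene, differed by -0.075 between genotypes and was not shown to differ (limma adjusted p = 0.757 over all rows), and a dimmer row by -0.52 (adjusted p = 0.247). The sources used here do not place the probes against the deleted part, so these rows do not check the genotype labels.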

How the data were processed

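Per the submitters' processing notes, the authors made the deposited log2 values from MoGene 2.0 arrays with Affymetrix Expression Console and RMA, which sets all arrays to 1 distribution, so that differences are relative to the other genes. Versions, settings and genome build: not given in the sources used here. Of 41345 rows, 23521 carry 1 symbol, 1814 several and 16010 none. The 22180 genes with 1 row each (the brightest of several, for 1082 genes) entered a linear model in limma 3.58.1 under R 4.3.3 (lmFit, eBayes, genotype only, 2 residual and 2.95 prior degrees of freedom), two-sided, Benjamini-Hochberg adjusted over all genes with a threshold of 0.05; 95% intervals are per gene. An exact permutation test of 2 against 2 arrays cannot give a p below 0.333. The labels call the arrays biological replicates without saying which mice each pool held, and p-values cover only the spread among the pools.

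The members and lists were chosen with earlier results of these data known. Named were all members, and from each pathway list every gene that passed and others up to 4 by smallest p. From each marker list the 3 with the highest mean were named, as were the 5 genes nearest to a member that passed. Other genes are named where a count singled them out or to show the opposite direction, after their values were seen. List symbols Pla2g16 and Fam213b were matched as Plaat3 and Prxl2b through synonyms in the reference gene table. The fit was tested on simulated arrays: of 50 genes changed by 0.5 on the log2 scale it recovered 1, of 50 changed by 1 it recovered 38 and of 50 changed by 2 it recovered 50. Fewer genes were changed in the simulation than passed in the data, so these counts do not give the power for the members. Alternatives were other variance models, normalizations, a filter on dim genes, other uses of rows, a replicate block and leaving out each array. Figures were drawn with matplotlib 3.10.9.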

Additional observations from a re-analysis of the deposited data

How the results depend on the processing

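Every alternative kept the direction of each of the 8 genes it covered, while the calls depended on the variance model, on how many genes or arrays entered the fit and on the replicate block. In limma, 630 genes and 1 of the 8 passed in the report's setting. With an intensity trend in the variance 2671 genes and 2 of the 8 (Ptgs2 and Hpgd) passed, and with a robust trend 2729 and 2. Among the 11090 genes above the median level, which hold 6 of the 8, 2327 genes and 3 of the 8 (Ptgs2, Ptger4 and Hpgd) passed. Tested over all 41345 rows, 0 passed, with 6694 rows and 3 of the 8 at unadjusted p under 0.05 in limma. With 1 array left out, where the lone array is taken to vary like the other genotype, the counts were 0 to 0 for all genes and 0 to 0 for the 8 (limma, 2948 to 4627 genes and 2 to 3 of the 8 at unadjusted p under 0.05). With the replicate number as a block, 37 genes and 0 of the 8 passed (limma, 4335 genes and 3 of the 8 at unadjusted p under 0.05). Same-numbered arrays did not deviate together over all genes (correlation -0.025), which does not show whether they shared a preparation that moved some genes. The 4 other normalizations and the mean of a gene's rows kept the count of the 8 at 1. These normalizations moved the median of all genes by at most 0.023. Signal over background limits Ptger2 and Ptger3, and 2 arrays per genotype limit the precision of all 8.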
